A study of Mus musculus with 4 samples.

Results

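Lymph nodes are built on a scaffold of non-haematopoietic cells. Fibroblastic reticular cells lay down collagen fibres and produce the chemokines that place lymphocytes, pericytes wrap the vessels, and blood and lymphatic endothelium lets cells and fluid in and out. The genes described here are 10 that such cells are known to use, namely Col1a2, Col15a1, Matn2, Svep1, Reck, Sdc2, Cav1, Cav2, Colec12 and Lpar1. They were taken by symbol from 56748 gene IDs in the deposited count tables, and all 10 were found, each under 1 ID. They were picked because they lie in stretches of chromosomes 4, 6, 15 and 18 where gene names appear to sit on their own reads, and the question put to them was whether stromal content of the node differed with treatment.

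Lymph nodes came from 4 mice in which experimental autoimmune encephalomyelitis (EAE) had been set up, a model in which the immune system attacks the brain and spinal cord. The BrQ group was 2 EAE mice given 2-bromo-1,4-naphthalenedione, a brominated naphthoquinone (replicates 1 and 3), and the Vehicle group was 2 EAE control mice (replicates 1 and 3). Strain, age, sex, dose and the day of collection are not given in the labels, and no mouse without EAE is among the groups. Each mouse gave 1 total RNA library with 6813832 to 7989226 reads assigned to genes, which is 11.0% to 13.0% of all read rows. In bulk tissue, fewer cells of a type and less RNA per cell cannot be told apart.

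Most names in these tables appear displaced from their reads, so the place of each member was looked at first. The stretches were drawn from an earlier look at these same counts, as places where names hold reads, so the counts of expressed genes in them describe that choice and are no independent evidence of placement. A panel of 9 genes of widely used families (proteasome, splicing, translation and vesicle coat genes among them) lay inside the stretches, and 8 of them averaged at least 100 reads; outside, 56 of 227 did. Among the 5 nearest named protein-coding genes on each side of a member, the number averaging at least 50 reads had a median of 6 over the 10 members, against 2 over 18010 genes outside the stretches. Near Matn2 lies Rpl30, a ribosomal protein gene, with 18022 to 20977 reads per library, and near Reck lies Clta, the clathrin light chain gene, with 3849 to 7181. Sec61b, a subunit of the protein channel of the endoplasmic reticulum, held 2964 to 3610 reads near Col15a1, and Capza2, an actin capping subunit, held 2330 to 8136 near Cav1 and Cav2. Col1a2 had the fewest such neighbours, with 2 of its 10 neighbours at 50 reads or more, the higher of them Casd1 with 767 to 981 reads. The chromosome 18 stretch around Colec12 holds no panel gene. A match of name and reads was therefore not shown for each gene.

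Reads of the members were few in all 4 libraries. The 10 members together held 494 and 363 reads in BrQ replicates 1 and 3, and 450 and 484 in Vehicle replicates 1 and 3. Scaled to 1000000 reads assigned to genes this came to 70.6 (95% Wilson interval 64.7 to 77.2) and 53.3 (48.1 to 59.0) in BrQ and to 61.5 (56.1 to 67.5) and 60.6 (55.4 to 66.2) in Vehicle. These intervals cover counting error only. The highest and the lowest of these shares were both BrQ libraries, with both Vehicle libraries between them, so the summed shares of the groups overlapped. They are not TMM scaled. TMM, an edgeR correction for library composition used below, gave factors of 1.14 and 1.14 in BrQ and 0.94 and 0.82 in Vehicle. With library sizes multiplied by these factors, both BrQ sums lay below both Vehicle sums, so the overlap depends on the scaling. Without Col1a2 and Lpar1 the shares before TMM were 40.0, 26.7, 38.4 and 34.9 in the same order, and the groups overlapped again. With the TMM factors both BrQ sums again lay below both Vehicle sums.

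Set per kilobase of exon (RPKM, reads per kilobase of exon in 1000000 reads, with TMM scaling, an edgeR correction for library composition), all 10 members lay below the median of the 572 protein-coding genes inside the stretches, which was 3.40 RPKM. Reck stood highest with a mean of 2.55 over the 4 libraries (range 2.35 to 2.98), followed by Lpar1 at 2.21 (1.40 to 3.12), Col1a2 at 1.38 (0.924 to 2.05) and Matn2 at 1.25 (0.721 to 1.60). Colec12, Cav2 and Col15a1 came next at 0.773, 0.721 and 0.689. Below them were Cav1 at 0.341, Sdc2 at 0.134 and Svep1 at 0.0269. The ranges of neighbours in this order overlapped over the 4 libraries except for Sdc2 and Svep1. Exon lengths here are the union of all annotated transcripts, and that of Col1a2 (12426 bases) includes retained introns, which lowers its value. Summed over the 10 members, RPKM were 10.9 and 8.35 in BrQ replicates 1 and 3 and 9.99 and 11.1 in Vehicle replicates 1 and 3. In this measure the groups overlapped.

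Lymphocyte genes inside the same stretches were more abundant. Cd72, a B cell surface protein, averaged 454 RPKM, Lyn, a kinase of the B cell receptor pathway, 220 RPKM, and Pax5, the transcription factor of B cell identity, 131 RPKM. Il7r, the interleukin 7 receptor chain of naive T cells, averaged 152 RPKM and Sit1, a T cell adaptor, 84.7 RPKM, while Tox, a T cell nuclear factor, was at 8.02 RPKM. Each of these 6 genes lay above all 10 members. Among the stromal chemokines, Ccl19 held 27 and 8 reads in BrQ replicates 1 and 3 and 5 and 0 in Vehicle replicates 1 and 3. Ccl21a was at 0 reads in each library, which does not show that its RNA was absent. Both belong to a cluster with near-identical copies, so their reads are uncertain, and neither was tested. Of 5 adipocyte markers only Lep lay inside the stretches, at 0 reads in all 4 libraries. For skeletal muscle, Musk held 1, 0, 0 and 0 reads, and for epithelium Grhl2 held 3, 0, 0 and 0. The remaining marker names of fibroblasts (Col1a1, Col3a1, Pdpn, Pdgfra, Pdgfrb) and endothelium (Pecam1, Cdh5, Kdr, Lyve1, Prox1) lay outside the stretches and were not read.

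**Figure D1:**
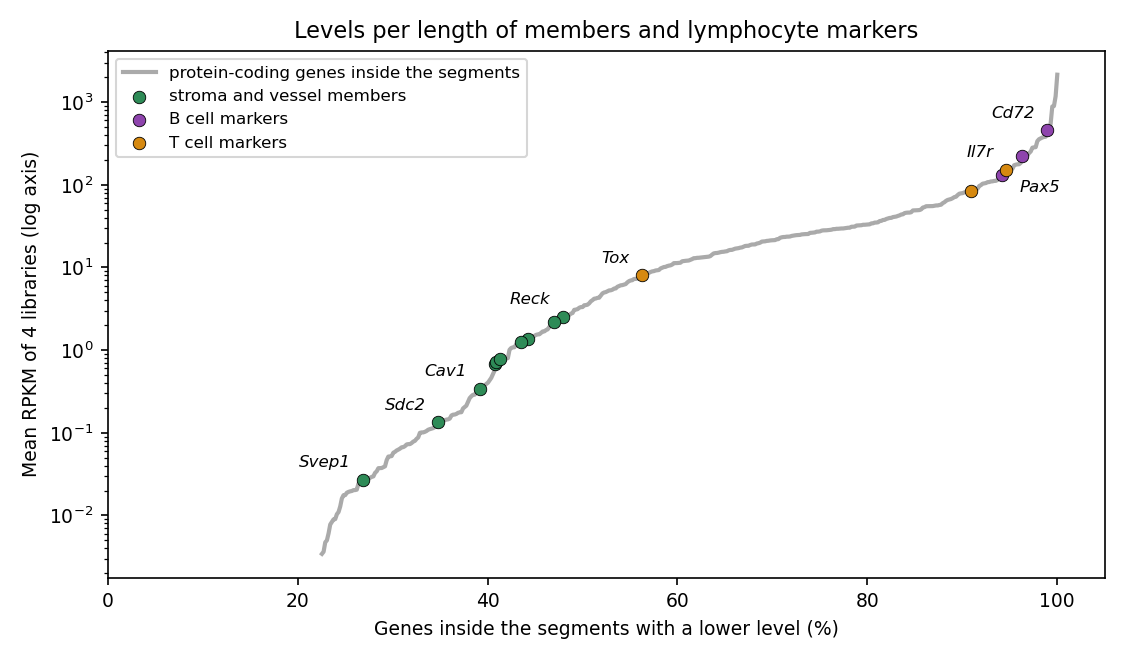
Mean RPKM over the 4 libraries (log vertical axis) against the percent of the 572 protein-coding genes inside the stretches (labelled segments) with a lower level. Green points are the 10 stroma and vessel genes, purple and orange points are B and T cell markers, and the grey line is every gene inside with a read; all green points sit below 3 RPKM and all purple points above 100 RPKM.

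Upstream sequence is shown for the members whose RNA passed the test and had an entry, and for the adjacent caveolin genes. Of the 10 members, 7 matched an entry in the table of RefSeq promoters (GRCm38.p6) used here. Each run is up to 120 bases before a listed start, kept to bases in no annotated exon, on the coding strand. The Cav1 and Cav2 runs end at the base before the start, the Col1a2 run 126 bases and the Lpar1 run 138 bases before it. The Col1a2 and Lpar1 runs lie inside the annotated gene spans given below, between exons, so they are upstream only of the listed start. Capitals mark a GC box (GGGCGG) or an AP-1 site (TGANTCA), on either strand; CCAAT and TATAAA boxes were also searched.
Col1a2, chr6:4505373-4505492, plus strand: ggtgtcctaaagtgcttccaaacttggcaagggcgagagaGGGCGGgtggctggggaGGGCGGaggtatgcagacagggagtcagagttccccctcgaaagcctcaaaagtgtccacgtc
Lpar1, chr4:58553629-58553729, minus strand: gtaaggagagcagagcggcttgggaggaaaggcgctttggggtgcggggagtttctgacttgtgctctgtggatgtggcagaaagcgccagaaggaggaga
Cav2, chr6:17281065-17281184, plus strand: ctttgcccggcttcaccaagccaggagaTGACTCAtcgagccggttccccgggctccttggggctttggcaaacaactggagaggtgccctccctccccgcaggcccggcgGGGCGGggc
Cav1, chr6:17306215-17306334, plus strand: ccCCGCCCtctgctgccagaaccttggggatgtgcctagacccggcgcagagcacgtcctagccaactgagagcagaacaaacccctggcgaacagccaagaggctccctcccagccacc

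The Col1a2 run carries 2 GC boxes, the Cav1 and Cav2 runs 1 each, and Cav2 also an AP-1 site; no searched motif is in the printed Lpar1 run. Over 250 bases before each of 32851 listed starts, a GC box was present in 32.7%, a CCAAT box in 33.8%, a TATAAA box in 12.4% and an AP-1 site in 6.75%. In the same windows of the members, Reck and Col1a2 held 2 GC boxes and 1 CCAAT box each, Lpar1 held a GC box before 2 of its 3 listed starts, and Svep1 and Cav1 held 1 TATAAA box each. Col15a1 held none of the motifs. These are matches of letters only.

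The comparison of BrQ with Vehicle asked if the members changed together, and those that changed did so in both directions. Of the 10 genes, 8 had enough reads to be tested with edgeR's quasi-likelihood test over all 10223 features; Lpar1 was higher in BrQ, Col1a2 and Colec12 were lower, and Col15a1, Matn2, Reck, Cav1 and Cav2 did not pass at an adjusted p of 0.05. Of all features tested 45.7% passed, 23.6% higher and 22.2% lower, so 3 members of the 8 tested is a share near the background. Inside the stretches 19.3% were higher and 24.9% lower. The CPM of the groups did not overlap for 4 of the 8 genes, against 76.1% of all features and 76% inside the stretches. Over the 8 genes the log2 fold changes had a median of -0.44, against -0.18 for the 445 features tested inside the stretches and 0.05 for all features. CPM below are counts in 1000000 reads with TMM scaling, and values are given for BrQ replicates 1 and 3 and then Vehicle replicates 1 and 3. The p-values of edgeR combine counting error with a spread between these mice that is estimated partly from all features. They cover no variation beyond these mice.

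**Figure D2:**
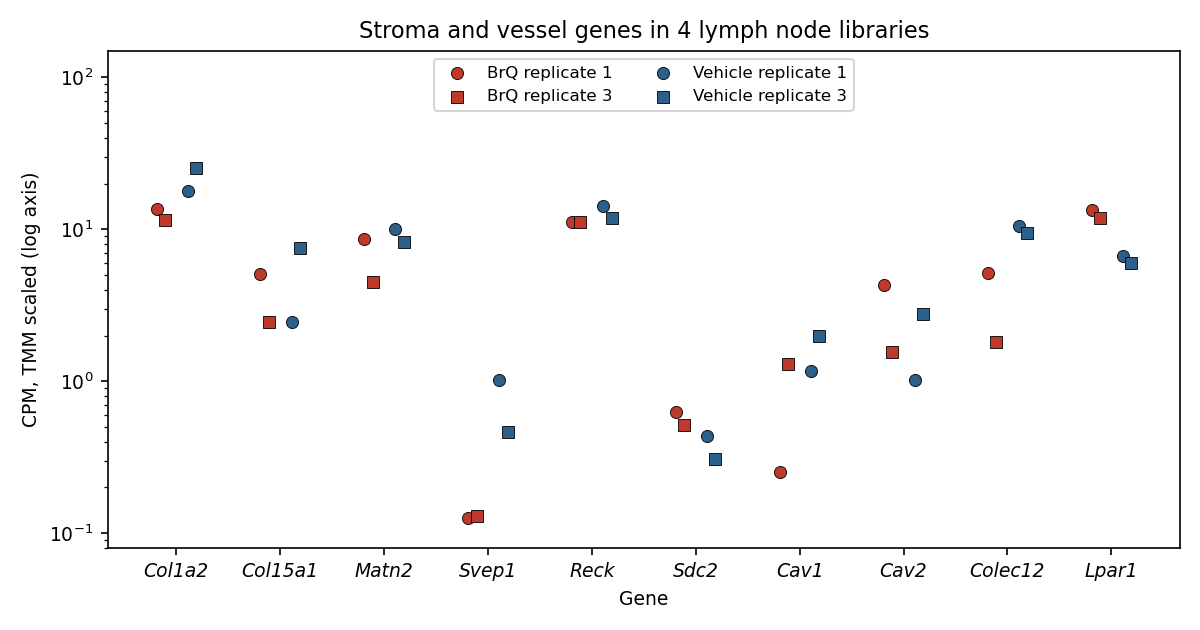
TMM scaled CPM (log vertical axis) of each of the 10 genes in each library, with 1 point per mouse, red for BrQ and blue for Vehicle, circles for replicate 1 and squares for replicate 3. The groups separate for Col1a2, Colec12 and Lpar1, and also for Reck, Svep1 and Sdc2, which were not called or not tested, while for Col15a1, Matn2, Cav1 and Cav2 the red and blue points interleave.

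Among the matrix genes, Col1a2, which encodes the alpha 2 chain of type I collagen (chr6:4504814-4541544, plus strand), held 108, 89, 123 and 166 reads, or 13.6, 11.5, 17.9 and 25.5 CPM. Both BrQ libraries lay below both Vehicle libraries, and Vehicle replicate 3 was the highest. The fitted level was 1.72-fold lower in BrQ (log2 fold change -0.78 ± 0.26 SE, adjusted p = 0.0352 with edgeR). The call was lost without Vehicle replicate 3 (-0.52), without BrQ replicate 3 (-0.65) and without BrQ replicate 1 (-0.90), with edgeR adjusted p of 0.215, 0.216 and 0.0837. With library size alone in place of TMM it was -0.40 (adjusted p = 0.264 with edgeR); that scaling raised the median of all features by 0.37, and relative to the median Col1a2 stood at -0.83 with TMM and -0.82 with library size alone. Fitted on the features inside the stretches alone it was -0.65, or -0.60 relative to their median, with an edgeR adjusted p of 0.0828. With the replicate number as a block the call was also lost (adjusted p = 0.0555 with edgeR).

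Col15a1, a basement membrane collagen of vessels and perivascular stroma (chr4:47208161-47313167, plus strand), held 40, 19, 17 and 49 reads, or 5.05, 2.45, 2.47 and 7.52 CPM. The mice within each group differed more than the groups did. BrQ replicate 3 and Vehicle replicate 1 were the low libraries. Its log2 fold change was -0.39 with a 95% interval from -1.64 to 0.85 (adjusted p = 0.587 with edgeR), and it became positive without BrQ replicate 3 (0.04) or without Vehicle replicate 3 (0.59). Matn2, a matrilin that links matrix fibres (chr15:34306677-34436273, plus strand), held 68, 35, 69 and 54 reads, or 8.59, 4.52, 10.03 and 8.29 CPM. BrQ replicate 3 was lowest and BrQ replicate 1 fell between the Vehicle libraries, and the change was -0.48 (95% interval -1.30 to 0.34, adjusted p = 0.306 with edgeR). Svep1, a large adhesion protein of lymphatic development (chr4:58042442-58206859, minus strand), held 1, 1, 7 and 3 reads and was too low for the test. Its pooled CPM in BrQ was 0.171 times that in Vehicle, with a 95% counting interval from 0.0182 to 0.803 that leaves out the spread between mice, and 13.9% of its exonic bases are shared with a predicted gene.

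Reck, a membrane-anchored inhibitor of matrix metalloproteinases (chr4:43875530-43944806, plus strand), kept within a narrow range. It held 89, 87, 98 and 78 reads, or 11.2, 11.2, 14.2 and 12.0 CPM. Both BrQ libraries lay just below Vehicle. Groups did not overlap, in either direction, for 76.1% of features tested. The change of Reck was -0.22 (95% interval -0.81 to 0.37, adjusted p = 0.514 with edgeR). With library size alone it was 0.14, but relative to the median of all features Reck stood at -0.27 with TMM and -0.28 with library size alone, so the sign turned with the common shift. Sdc2, a heparan sulphate proteoglycan of fibroblasts and endothelium (chr15:32920723-33034935, plus strand), held 5, 4, 3 and 2 reads. Its pooled CPM ratio of BrQ to Vehicle was 1.54 with a 95% counting interval from 0.463 to 5.85, so no difference was detectable at this depth.

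The caveolins coat the flask-shaped membrane pits of endothelial cells, fibroblasts and adipocytes, and the genes lie next to each other on the plus strand of chromosome 6. Cav1, the main caveolin of the coat (chr6:17306335-17341452), held 2, 10, 8 and 13 reads, or 0.253, 1.29, 1.16 and 1.99 CPM. Only BrQ replicate 1 stood apart, at the low end. Cav2, which assembles with Cav1 (chr6:17281185-17289115), held 34, 12, 7 and 18 reads, or 4.29, 1.55, 1.02 and 2.76 CPM. Here BrQ replicate 1 was the highest library, so in that mouse the caveolins stood at opposite ends. Neither gene passed: the log2 fold changes were -1.02 for Cav1 (95% interval -2.71 to 0.68, adjusted p = 0.293 with edgeR) and 0.64 for Cav2 (-0.80 to 2.09, adjusted p = 0.438 with edgeR). Each interval reaches past a 4-fold change in 1 direction, so at this depth a difference of that size was not shown to be absent.

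The surface receptors moved in opposite directions. Colec12, a collectin with scavenger receptor activity on endothelium and stromal cells (chr18:9707595-9882644, plus strand), held 41, 14, 72 and 62 reads, or 5.18, 1.81, 10.5 and 9.51 CPM. Both BrQ libraries lay below both Vehicle libraries, with BrQ replicate 3 lower still. The fitted level was 2.84-fold lower in BrQ (log2 fold change -1.51 ± 0.44 SE, adjusted p = 0.0190 with edgeR). That size rests on BrQ replicate 3: when it was left out the change was -0.94 (edgeR adjusted p = 0.155), and when BrQ replicate 1 was left out it was -2.44 (edgeR adjusted p = 0.00817). Leaving out Vehicle replicate 1 or Vehicle replicate 3 kept the size (-1.46 and -1.59) but took the adjusted p of edgeR to 0.0569 and 0.0533.

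Lpar1, a receptor for lysophosphatidic acid on reticular and other mesenchymal cells (chr4:58435255-58553898, minus strand), held 106, 92, 46 and 39 reads, or 13.4, 11.9, 6.68 and 5.98 CPM. Both BrQ libraries were above both Vehicle libraries, and the mice within each group were close. The fitted level was 1.99-fold higher in BrQ (log2 fold change 0.99 ± 0.30 SE, 95% interval 0.33 to 1.65, adjusted p = 0.0214 with edgeR). Leaving out any 1 library took the adjusted p to 0.0546 to 0.105 with edgeR while the change stayed between 0.90 and 1.09, and DESeq2 gave 0.95 (adjusted p = 0.0589). With library size alone it was 1.36 (adjusted p = 0.00326 with edgeR), under the shift that all features share. Relative to the median of all features Lpar1 stood at 0.942 with TMM and 0.943 with library size alone.

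**Figure D3:**
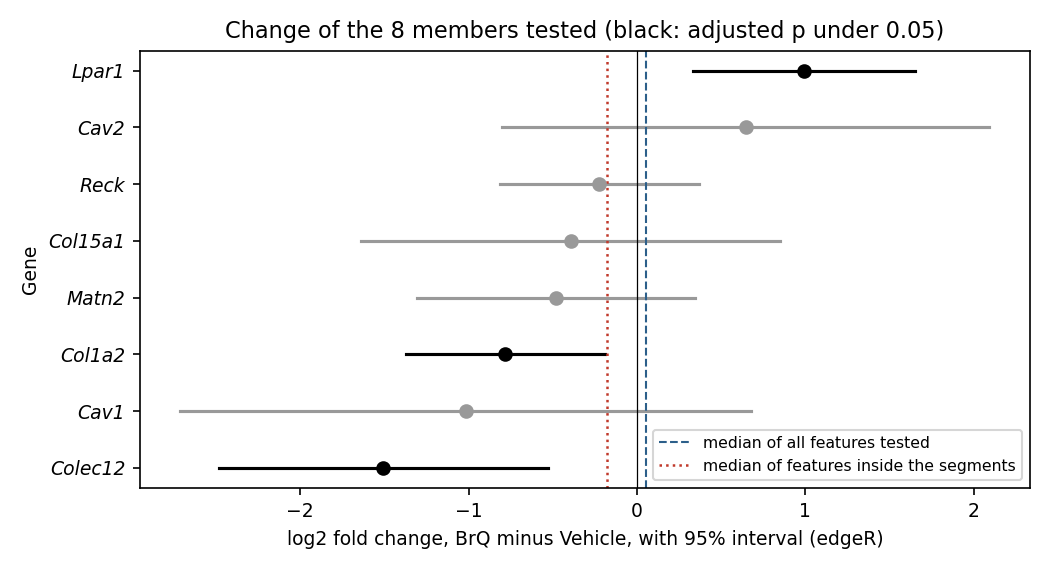
Log2 fold change of BrQ minus Vehicle with its 95% interval from edgeR for the 8 members tested, in order of size; black marks an adjusted p under 0.05 and grey the rest. The dashed line is the median of all features tested (0.05) and the dotted line that of features inside the stretches (-0.18); only Lpar1, Col1a2 and Colec12 have intervals clear of 0, and they lie on both sides.

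Within a group, the CPM of several members differed between the mice. In BrQ the higher library exceeded the lower 2.87-fold for Colec12, 2.77-fold for Cav2, 2.06-fold for Col15a1 and 1.90-fold for Matn2, each with replicate 1 higher, and 5.11-fold for Cav1, with replicate 3 higher. In Vehicle replicate 3 was higher for Col15a1 (3.04-fold), Cav2 (2.72-fold), Cav1 (1.72-fold) and Col1a2 (1.43-fold). Reck and Lpar1 stayed within 1.19-fold in both groups. Over all features tested, of any read depth, the median of this ratio was 1.19 in BrQ and 1.24 in Vehicle, while Cav1 and Cav2 held at most 34 reads per library. Of the 8 members tested between groups, 7 were higher in BrQ replicate 1 than in BrQ replicate 3, against 48.1% of all features, and Cav1 was the exception. The 7 include Reck at a ratio of only 1.001, and Lpar1 and Col1a2 at 1.13 and 1.19. In Vehicle, 4 of the 8 were higher in replicate 3, against 48.8% of all features.

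**Figure D4:**
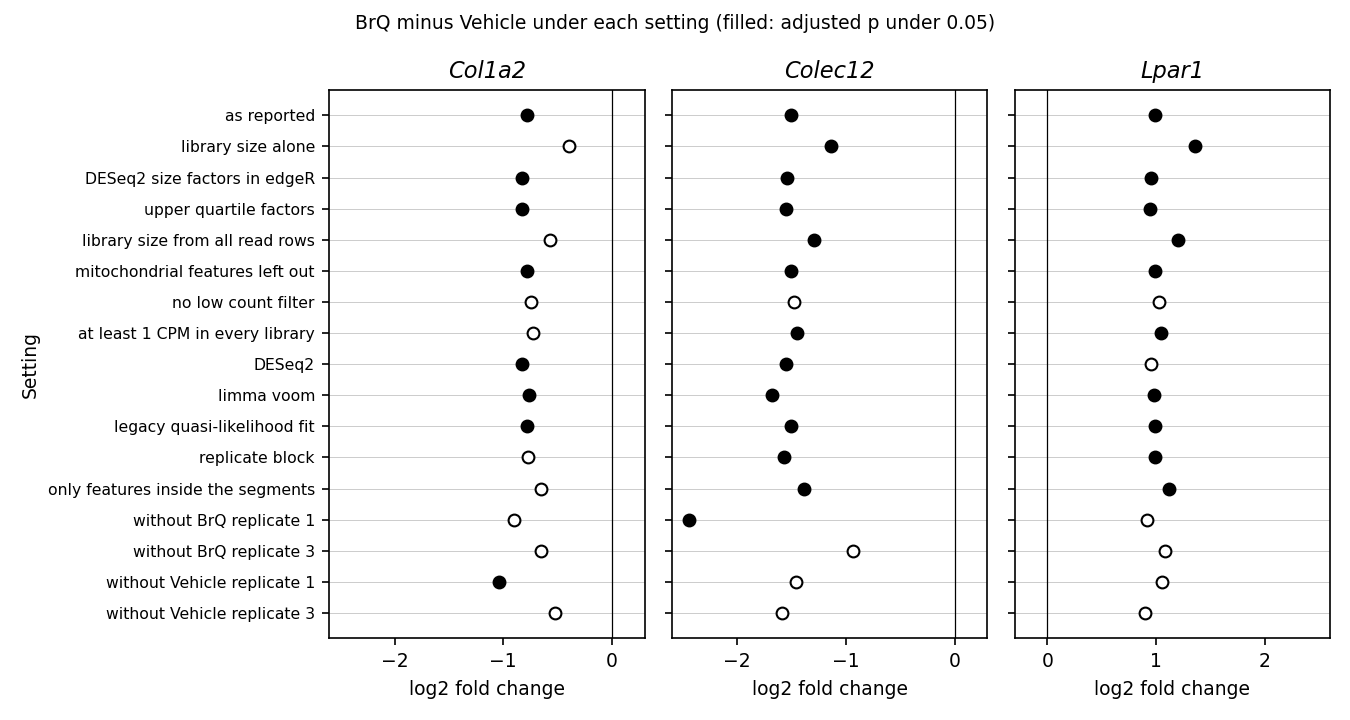
Log2 fold change (horizontal axis) of Col1a2, Colec12 and Lpar1 as reported and under 16 other settings (rows); filled points have an adjusted p under 0.05. Col1a2 passed under 7 of the 16, Colec12 under 12 and Lpar1 under 10, and no gene changed sign.

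A wider set of 34 genes that fibroblasts, pericytes, vessels or matrix use lay inside the same stretches, of which 20 were tested. It includes Musk and Tmod1, which are also on the skeletal muscle list, and Tmod1 is among the genes counted lower. With edgeR 5 were higher, 6 were lower and 9 did not pass, and the median log2 fold change was 0.06. Inside the stretches 44.3% of features passed. Groups did not overlap for 13 of the 20, against 76% of features inside the stretches. Scaling by library size only turned the split to 9 higher against 1 lower, under the shift that all features share. The median of the set relative to that of all features was 0.01 with TMM and 0.02 with library size alone. Several of these genes are also used by lymphocytes or myeloid cells. Met, the receptor for hepatocyte growth factor, rose from 7.12 and 8.75 CPM in Vehicle to 24.6 and 33.4 in BrQ (log2 fold change 1.87, adjusted p = 0.000666 with edgeR). Bambi, a decoy receptor of the TGF-beta pathway, rose from 4.07 and 2.46 CPM to 9.35 and 8.00 (1.40, adjusted p = 0.0151 with edgeR), and Rock1, a kinase of actomyosin contraction, and Abca1, a cholesterol exporter, rose by 0.79 and 0.69.

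Among those that fell, Il11ra1, an interleukin 11 receptor chain with near-identical copies nearby, went from 130 and 145 CPM in Vehicle to 51.0 and 48.4 in BrQ (log2 fold change -1.47, adjusted p = 0.000172 with edgeR). Npr2, a natriuretic peptide receptor, fell by 1.50, Smo, the signal transducer of the Hedgehog pathway, by 1.21, and Rai14, an actin-binding protein, by 0.90. Met, Rock1 and Il11ra1 passed under all 16 other settings tried, and the other 5 lost the call under some. None of the 5 passed with no low count filter, and Npr2, Smo and Rai14 did not pass with library size alone (-1.11, -0.84 and -0.51). Without BrQ replicate 3, Abca1 (0.47), Bambi (1.52), Npr2 (-1.06), Smo (-0.68) and Rai14 (-0.63) did not pass. Without Vehicle replicate 3, Bambi (1.08), Npr2 (-0.84), Smo (-1.39) and Rai14 (-0.53) did not pass, nor did Bambi without BrQ replicate 1 (1.30) or Smo without Vehicle replicate 1 (-1.02). Tgfbr1, the type I TGF-beta receptor, stood at 115, 98.7, 101.7 and 126 CPM and missed the threshold (-0.09, adjusted p = 0.695 with edgeR). With library size alone Tgfbr1 was at 0.29, and relative to the median of all features at -0.14 with TMM and -0.13 with library size alone. Klf4, a transcription factor of vessel and stromal cells, did not pass either (0.29, adjusted p = 0.356 with edgeR).

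Cell type markers moved between the groups as well. The B cell genes Cd72 and Lyn passed in opposite directions (-1.01 and 0.81) and Pax5 did not pass (-0.22), while of the T cell genes Il7r and Sit1 were lower (-0.61 and -0.78) and Tox was higher (0.72). Summed over the list with TMM scaling, B cell markers ranged from 685 to 721 RPKM in BrQ and from 880 to 935 in Vehicle. T cell markers ranged from 186 to 200 and from 296 to 297. Without the TMM factors the B cell sums of the groups overlapped, while both T cell sums in BrQ stayed below both in Vehicle. Cdh17, the second epithelial marker inside the stretches, which lymphocytes can also express, was 3.36-fold higher in BrQ (adjusted p = 0.000562 with edgeR) while Grhl2 was at or near 0. Of the muscle list, Tmod1, an actin filament cap that other cells also use, was lower (-0.85) and Musk near 0. Whether these shifts have a part in the values of Col1a2, Colec12 or Lpar1 was not tested.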

How the data were processed

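Per the labels' protocols, total RNA was extracted with TRI Reagent and sequenced in paired ends, 1 library per mouse. Each deposited table holds whole-number counts with no normalization. HTSeq 0.11.2, HISAT2 2.1.0, Trim Galore 0.6.2 and the build mm10 are named in the submitters' processing notes. The sources used here do not give the annotation release or the strand setting. Of the 5 closing rows that name no gene, the one for reads in no feature held 86.8% to 88.8% of all read rows. All 5 stayed outside library sizes and tests as reported. Positions and exon lengths came from GENCODE M21 (GRCm38), and the stretches, called segments in the plots, run between named boundary genes taken from an earlier look at these data. The members, lists and stretches were chosen with earlier results of these data known.

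Tests used edgeR 4.0.16 in R 4.3.3 (quasi-likelihood, filterByExpr, TMM, group as the only term, all 4 libraries) with Benjamini-Hochberg adjustment over all features and a threshold of 0.05; DESeq2 1.42.0 and limma voom (limma 3.58.1) were alternatives. Named genes were all members, up to 4 genes per direction of the wider set with at least 1 CPM, Ccl19, Ccl21a, Tgfbr1, Klf4 and the cell type markers. Replicate numbers come from the titles, and no label says they mark a shared batch. Figures were drawn with matplotlib 3.10.9.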

Additional observations from a re-analysis of the deposited data

Results flagged for a closer look

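Reads assigned to no counted feature stand outside the main measurement and took a larger share of all read rows in BrQ than in the control mice. Their share averaged 88.7% ± 0.181 (SD, n = 2) in BrQ and 87.3% ± 0.677 (SD, n = 2) in Vehicle, and both BrQ libraries lay above both Vehicle libraries. Whether these reads lie inside or outside genes, and in which genes, was not analysed here.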

How the results depend on the processing

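With 2 mice per group the calls of the members were fragile. Of the 16 other settings, 3 members passed under 5, and the count with edgeR was 0 with no low count filter (4 at an unadjusted p under 0.05; 2 with DESeq2 and 3 with limma voom under the usual filter), where 2481 of all features and 5 of the wider set passed. Leaving out each library in turn gave 0 to 1 members (0 without BrQ replicate 3 and without Vehicle replicate 3, with 1 and 2 at an unadjusted p under 0.05), 2031 to 4376 features and 4 to 12 genes of the wider set. Some directions among genes that did not pass turned. Reck was 0.14 with library size alone, and with 1 library left out Cav2 ran from -0.26 to 1.50, and Col15a1 from -1.02 to 0.59. Tgfbr1 was 0.29 with library size alone, 0.13 with library size from all read rows, 0.042 with features inside the stretches alone, and -0.25 to 0.060 with 1 library left out. Library size alone called 3607 features higher and 1072 lower, against 2409 and 2267 as reported. That scaling raises the median of all features by 0.37; the cause of the other moves was not tested. With a library left out, its lone group partner is assumed to vary like the other group. As a replicate block, the numbers gave 4190 features, 2 members and 11 genes of the wider set. Deviations of same-numbered mice from their group mean had a correlation of -0.12. With 2 mice per group this is the same value for both numbers by construction, so it counts once. A single value from so few mice cannot show or exclude a shared batch. Crossing the pairing, an alternative chosen after seeing the data, gave 5284 features and 3 members. At 2 to 166 reads per library for the 8 members tested, counting error limits what can be seen.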
